A study of Mus musculus with 19 samples.

Results

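The collagen chain genes of the mouse were followed in RNA-seq libraries of abdominal aortas. A gene was taken as a collagen chain when its name in the joined count table was Col, a number, the letter a and a second number, as in Col1a1. This rule found 44 of 40698 genes and used names only, not expression. The 44 genes were sorted by the molecule they build into 11 fibrillar, 6 basement membrane (type IV), 6 beaded filament (type VI), 3 hexagonal network (types VIII and X), 9 FACIT (fibril-associated with interrupted triple helices), 4 transmembrane and 2 multiplexin chains, 1 anchoring fibril chain (Col7a1) and 2 others (Col26a1 and Col28a1). All mice were male Apoe-/- on a C57Bl/6J background and received angiotensin II (AngII) by osmotic pump from 8 to 10 weeks of age, which induces abdominal aortic aneurysm in this strain. D-3 IR mice (n = 7) had total-body X-rays of 1 Gy 3 days before the pump, D+1 IR mice (n = 7) had the same dose 1 day after it, and control mice (n = 5) were not irradiated but had the same anesthesia. Every group carried the Apoe deletion and AngII, so no library shows the aorta without them. The day of sacrifice of the sequenced aortas is not given in the sources used here.

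Collagens are triple helices of 3 chains, either of 1 gene or of partner genes that must be made together. Types I and III form the load-bearing fibrils of the aortic media and adventitia, with types V and XI within these fibrils and FACIT chains on their surface. Type IV chains form the network of the basement membrane that surrounds each smooth muscle cell and underlies the endothelium. Type VI chains form beaded microfilaments around cells. Types XV and XVIII sit at basement membranes and carry a C-terminal fragment, called endostatin in type XVIII.

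The libraries held 25839001 to 97083681 counts in genes. Levels are given as CPM, counts scaled to the size of the library with TMM normalization. The smooth muscle genes of the list used here were present in every aorta, with a summed level of 9271 to 24098 CPM in D-3 IR, 1201 to 16113 CPM in D+1 IR and 5354 to 28398 CPM in control aortas. Library D-3 IR 10 held the most skeletal muscle RNA (6689 CPM summed over 7 genes), and library D+1 IR 3 held the lowest level of 24 of the 43 chains that could be tested. Libraries D+1 IR 1, 2 and 3 carry another file number than the other 16 libraries, so results that rest on them are also given without them.

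All 44 chains had counts, over 5 orders of magnitude. Between genes, levels were compared per kilobase of exon. Col1a1, the α1 chain of type I, had the highest level (1074 CPM per kilobase over all libraries), followed by Col3a1, the chain of type III, at 622 and Col1a2, the α2 chain of type I, at 479 CPM per kilobase. Next came Col18a1 with 277, Col4a1 with 254 and Col4a2 with 207 CPM per kilobase, all chains of or near basement membranes, and Col6a1 with 149 CPM per kilobase. In CPM, 6 chains averaged over 1000, 9 lay between 100 and 1000, 10 between 10 and 100, 9 between 1 and 10, and 10 under 1. The low chains included the cartilage chains Col2a1, Col9a1 and Col10a1 and the neuronal membrane collagen Col25a1, which was the only chain that the filter on low counts removed. Col25a1 had 0.0061 CPM per kilobase.

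**Figure D1:**
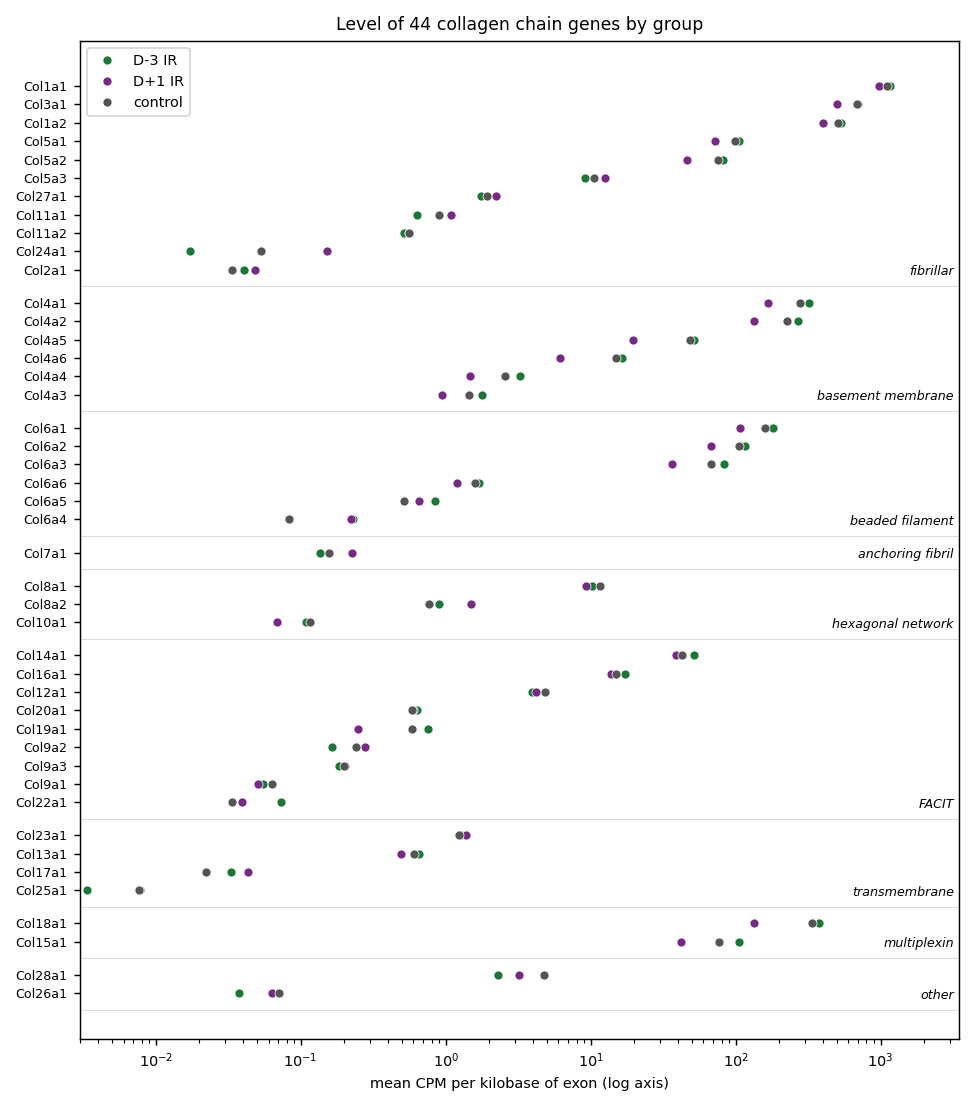
Mean level of each of the 44 collagen chain genes in D-3 IR (green), D+1 IR (purple) and control aortas (grey), as CPM per kilobase of exon on a log axis, grouped by collagen class and sorted within each class. Col1a1 has the highest level (1074 over all libraries), and the D+1 IR points lie left of the others for all 6 basement membrane chains and the 2 multiplexins.

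The first comparison asked whether any chain differed between the groups of mice. With edgeR's quasi-likelihood test and Benjamini-Hochberg adjustment over 17617 genes, 0 genes and so 0 chains passed an adjusted p of 0.05 in any of the 3 comparisons. At an unadjusted p under 0.05, the count for D-3 IR over control was 1 of 43 chains, close to the share of all genes at that level (232 genes, 1.32%). It was higher in D-3 IR, as were 0.5% of all genes, while 0 chains were lower, against 0.817% of all genes. For D+1 IR over control the count was 2 of 43 chains, with 1253 genes (7.11%) at that level. Both were lower in D+1 IR, as were 4.84% of all genes, and 0 chains were higher, against 2.28% of all genes. For D-3 IR over D+1 IR the count was 10 of 43 chains, with 2018 genes (11.5%). Of these, 9 chains were higher in D-3 IR, against 6.71% of all genes, and 1 was lower, against 4.75% of all genes. With DESeq2, 43 genes and 0 chains passed the adjusted threshold in the last comparison. With limma voom and sample weights, 2298 genes and 12 chains passed it, so for these chains the call depends on the test. The libraries of the groups overlapped for all 43 chains, while the groups did not overlap for 0.0114% of all genes between D-3 IR and control, 0.136% between D+1 IR and control and 0.159% between D-3 IR and D+1 IR.

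**Figure D2:**
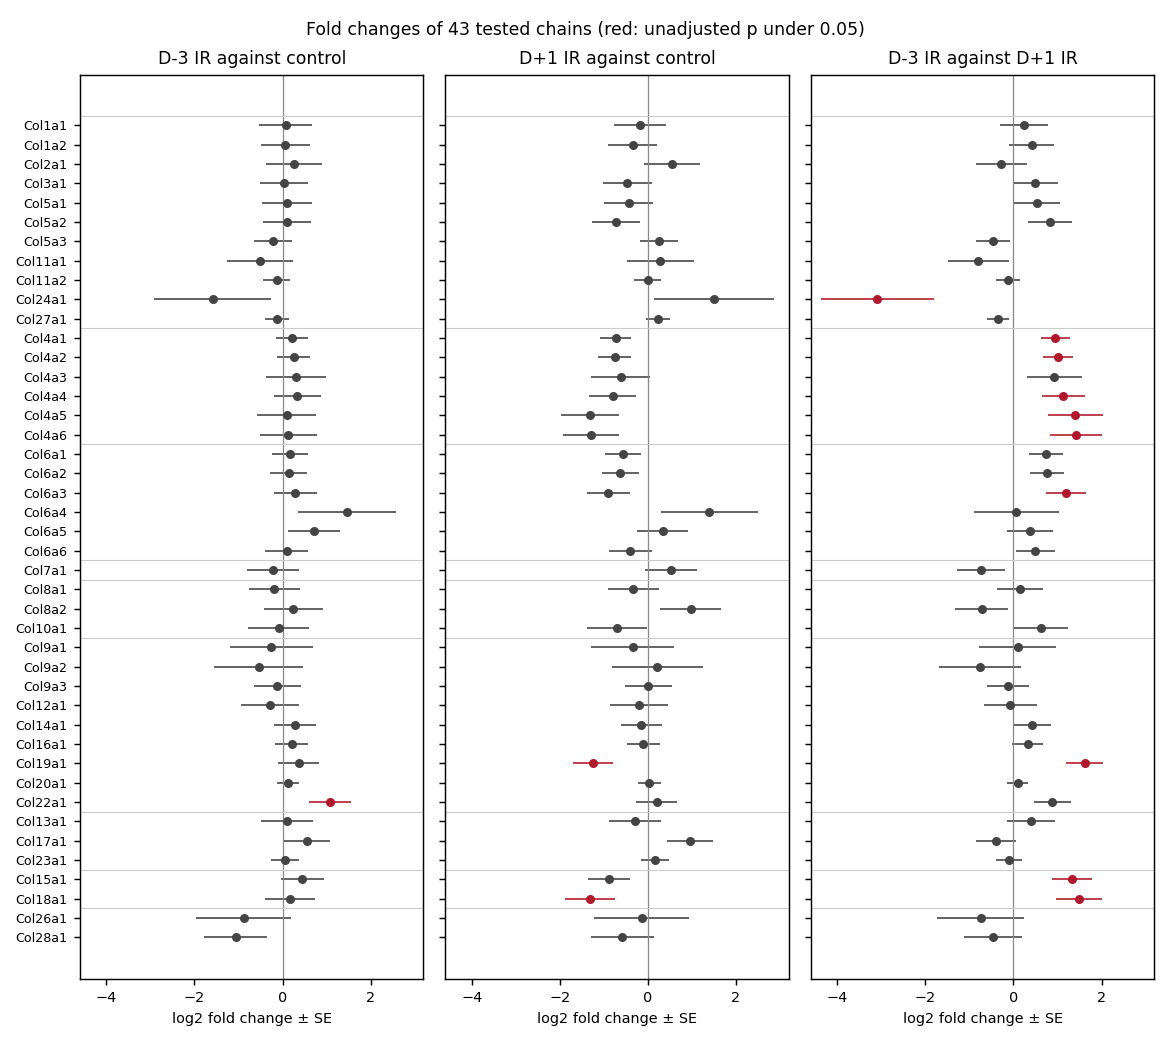
Log2 fold change with its standard error for the 43 tested chains in each comparison, from the edgeR fit, with red points for an unadjusted p under 0.05 and grey lines between the classes. For D-3 IR over D+1 IR, 9 red points lie above 0 and 1 (Col24a1) below it, and 0 of the chains passed the adjusted threshold.

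The 6 chains of type IV collagen were all higher in D-3 IR aortas than in D+1 IR aortas, with a median log2 fold change of 1.07 and 5 of 6 at an unadjusted p under 0.05, while 45.4% of all genes were above 0 and their median was -0.04. They were also all lower in D+1 IR than in control aortas, with a median of -0.78 where 44.9% of all genes were above 0, and 6 of 6 were slightly higher in D-3 IR than in control aortas, with a median of 0.24 where 43.1% of all genes were above 0. These 2 last comparisons share the control libraries, and the first shares libraries with each of them. The 6 chains are not separate observations either, since partners went up and down together across the aortas. Their r was 0.988 for Col4a1 with Col4a2, 0.956 for Col4a3 with Col4a4 and 0.995 for Col4a5 with Col4a6. In whole tissue, fewer cells of a type and less RNA per cell cannot be told apart.

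Col4a1 encodes the α1 chain, which joins with the α2 chain of Col4a2 in the network of all basement membranes. Col4a1 had 1143 to 3240 CPM in D-3 IR aortas (median 2667), 645 to 1997 CPM in D+1 IR aortas (median 1062), and 1027, 1829, 3262, 1152 and 3095 CPM in control aortas. Of the 7 D-3 IR libraries, 5 lay above the highest D+1 IR library, and the control libraries reached from D+1 IR levels to the highest level of all. For Col4a1 the log2 fold change was 0.95 (SE 0.33) for D-3 IR over D+1 IR (edgeR, adjusted p = 0.409) and -0.73 (SE 0.35) for D+1 IR over control (adjusted p = 0.644). Col4a2 had 849 to 2427 CPM in D-3 IR aortas (median 2019), 448 to 1509 CPM in D+1 IR aortas (median 770), and 756, 1263, 2545, 881 and 2016 CPM in control aortas. The libraries lay in much the same order as for Col4a1. Its log2 fold change for D-3 IR over D+1 IR was 1.01 (SE 0.34, edgeR adjusted p = 0.409).

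Col4a5 and Col4a6 encode the α5 and α6 chains, which are found with α1 and α2 in the basement membrane of smooth muscle. Col4a5 had 95.7 to 571 CPM in D-3 IR aortas (median 372), 7.05 to 331 CPM in D+1 IR aortas (median 78.5), and 154, 180, 681, 296 and 325 CPM in control aortas. Libraries D+1 IR 1, 2, 3 and 20 lay below every D-3 IR and control library, and D+1 IR 17, 18 and 19 lay within the control range. The log2 fold change of Col4a5 was 1.40 (SE 0.62) for D-3 IR over D+1 IR (edgeR, adjusted p = 0.421) and -1.31 (SE 0.66) for D+1 IR over control (adjusted p = 0.644). Col4a6 had 48.9 to 206 CPM in D-3 IR aortas (median 138), 2.56 to 120 CPM in D+1 IR aortas (median 26.4), and 61.2, 72.5, 252, 117 and 98.3 CPM in control aortas. The same 4 libraries of D+1 IR lay below all D-3 IR and control libraries, and its log2 fold change for D-3 IR over D+1 IR was 1.42 (SE 0.60, edgeR adjusted p = 0.421). Col4a3 and Col4a4, which build the α3α4α5 network known from kidney, were rare. Col4a4 had 9.10 to 47.9 CPM in D-3 IR aortas (median 36.7), 1.62 to 35.5 CPM in D+1 IR aortas (median 11.4), and 18.6, 14.0, 30.7, 39.1 and 34.9 CPM in control aortas. Col4a3 had 3.65 to 27.6 CPM in D-3 IR aortas (median 19.0), 0.726 to 20.4 CPM in D+1 IR aortas (median 5.45), and 9.43, 4.83, 20.6, 21.4 and 15.7 CPM in control aortas. D+1 IR 3 and 20 were the lowest aortas for both.

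**Figure D3:**
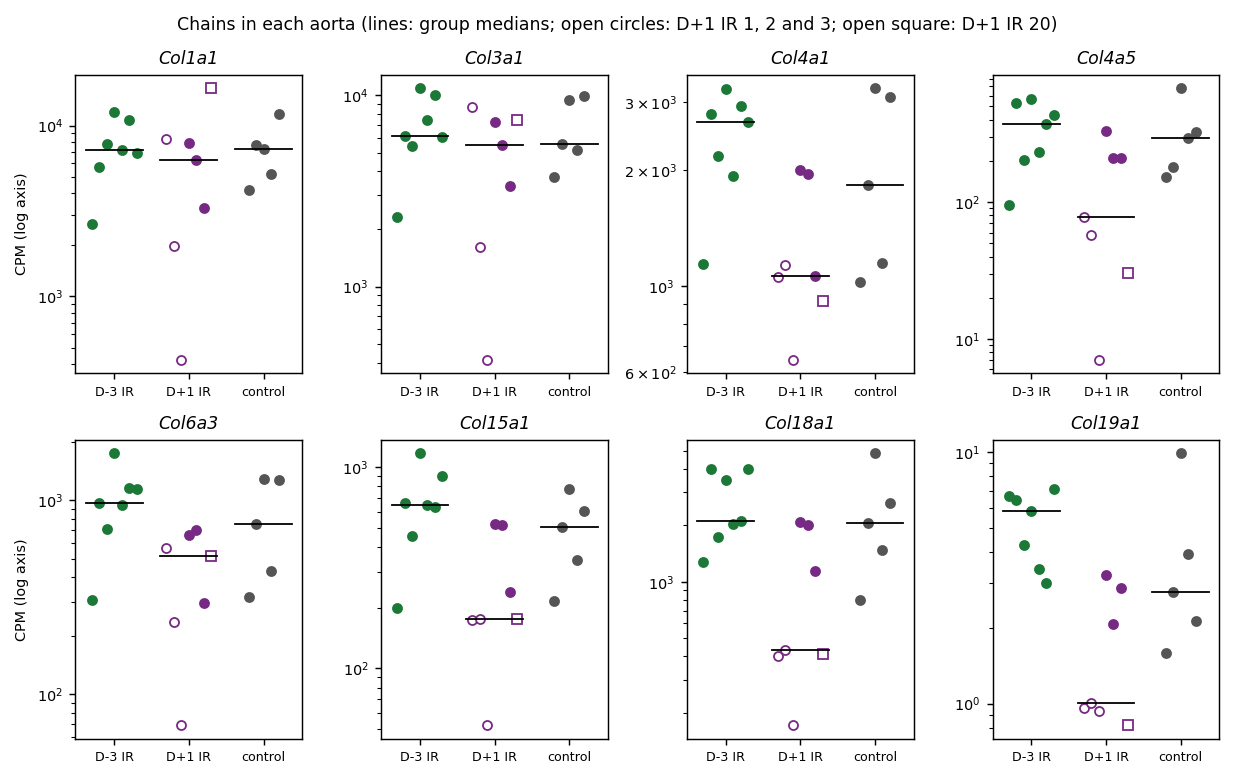
Level of 8 chains in each aorta, in CPM on a log axis, with D-3 IR, D+1 IR and control from left to right, group medians as lines, and D+1 IR 1, 2 and 3 (open circles) and 20 (open square) marked. These 4 libraries lie below all others for Col4a5, Col15a1, Col18a1 and Col19a1, whereas D+1 IR 20 is the highest of all for Col1a1 (16568 CPM).

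The type IV genes stand as head-to-head pairs that are transcribed away from each other. On chromosome 8 of GRCm38, Col4a1 (11198423 to 11312826, minus strand) and Col4a2 (11312805 to 11449287, plus strand) overlap by 22 bases at their annotated starts. On chromosome 1, Col4a4 (82448423 to 82586849, minus strand) and Col4a3 (from 82586921, plus strand) are 71 bases apart, and on chromosome X, Col4a6 (141165403 to 141474076, minus strand) and Col4a5 (from 141475385, plus strand) are 1308 bases apart. The stretches before these starts are shown because they lie between the starts of a pair and because the levels of the members of each pair went up and down together between mice. Chains on different chromosomes did so too, such as Col1a1 (chromosome 11) with Col1a2 (chromosome 6), with r of 0.989. Any part of the stretches in this was not tested. They are the parts outside annotated exons of the 250 bases before each RefSeq start (GRCm38.p6), and capitals mark the motif CCAAT and the motif GGGCGG on either strand.
Col4a4 to Col4a3, chr1:82586850-82586920, minus strand: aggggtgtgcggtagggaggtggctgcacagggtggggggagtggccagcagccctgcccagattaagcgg
Col4a6, chrX:141474077-141474326, minus strand: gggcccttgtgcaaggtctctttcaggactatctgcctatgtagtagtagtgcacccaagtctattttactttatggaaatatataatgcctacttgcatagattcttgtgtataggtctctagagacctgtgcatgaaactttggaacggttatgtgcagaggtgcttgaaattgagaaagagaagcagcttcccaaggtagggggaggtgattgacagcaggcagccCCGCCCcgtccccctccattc
Col4a5, chrX:141475169-141475384, plus strand: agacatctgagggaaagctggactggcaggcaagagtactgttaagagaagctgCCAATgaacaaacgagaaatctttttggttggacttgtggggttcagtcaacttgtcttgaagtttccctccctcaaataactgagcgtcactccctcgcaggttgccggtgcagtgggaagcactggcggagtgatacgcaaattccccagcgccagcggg
The stretch between Col4a4 and Col4a3 was 69.0% G or C and held neither motif. The Col4a6 stretch held GGGCGG, written on the other strand as CCGCCC, 21 bases before the start, and the Col4a5 stretch held CCAAT 196 bases before it. Of the 44 chains, 35 matched 38 windows of the RefSeq table. GGGCGG was in 22 of these 38 windows (57.9%), against 32.7% of 32851 windows of the same length (a description, not tested). The windows of the chains were also richer in G and C, with a median of 59.0%, against 52.4% in all windows. CCAAT was in 13 of the 38 windows (34.2%), against 33.8% of all windows.

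The 2 multiplexins had the highest median of any class for D-3 IR over D+1 IR, a log2 fold change of 1.41, and -1.10 for D+1 IR over control. Col18a1 encodes the chain of type XVIII collagen, a proteoglycan of vascular basement membranes. Col18a1 had 1275 to 3975 CPM in D-3 IR aortas (median 2111), 172 to 2074 CPM in D+1 IR aortas (median 431), and 802, 2065, 4832, 1479 and 2622 CPM in control aortas. D+1 IR 1, 2, 3 and 20 had 404, 431, 172 and 411 CPM, below every other aorta, while D+1 IR 17, 18 and 19 had 2074, 1996 and 1138 CPM. For Col18a1 the log2 fold change was 1.49 (SE 0.53) for D-3 IR over D+1 IR (edgeR, adjusted p = 0.409) and -1.32 (SE 0.56) for D+1 IR over control (adjusted p = 0.644). Col15a1 encodes type XV, which links basement membranes to fibrils. Col15a1 had 199 to 1168 CPM in D-3 IR aortas (median 649), 52.0 to 523 CPM in D+1 IR aortas (median 176), and 215, 502, 780, 344 and 603 CPM in control aortas. The same 4 libraries of D+1 IR were below all D-3 IR and control libraries, and its log2 fold change for D-3 IR over D+1 IR was 1.33 (SE 0.45, edgeR adjusted p = 0.409). Col18a1 is among the chains with the largest difference between the irradiated groups. The stretch before its RefSeq start farthest upstream (77166530) is therefore shown, with the motif CCAAT and the motif GGGCGG of either strand in capitals.
Col18a1, chr10:77166549-77166780, minus strand: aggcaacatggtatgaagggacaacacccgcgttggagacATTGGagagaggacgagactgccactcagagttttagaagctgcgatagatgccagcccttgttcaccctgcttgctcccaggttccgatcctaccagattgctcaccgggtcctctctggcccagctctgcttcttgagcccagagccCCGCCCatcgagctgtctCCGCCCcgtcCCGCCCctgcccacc
It held the letters ATTGG, the motif CCAAT of the other strand, 210 bases before the start. CCGCCC, which is the motif GGGCGG of the other strand, was there in 3 copies, 61, 43 and 33 bases before the start. The window of another RefSeq start of Col18a1 (77113705) held neither CCAAT nor GGGCGG. Counts per gene do not tell which start was used.

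Among all chains, Col19a1 had the smallest p in any comparison (0.00132, unadjusted). It encodes type XIX, a rare FACIT chain of basement membrane zones. Col19a1 had 3.02 to 7.10 CPM in D-3 IR aortas (median 5.81), 0.821 to 3.25 CPM in D+1 IR aortas (median 1.00), and 1.58, 2.79, 9.86, 3.91 and 2.12 CPM in control aortas. Of the 7 D-3 IR libraries, 6 lay above the highest D+1 IR library, and D+1 IR 1, 2, 3 and 20, with 0.965, 1.00, 0.933 and 0.821 CPM, lay below all other aortas. Its log2 fold change was 1.62 (SE 0.43) for D-3 IR over D+1 IR (edgeR, adjusted p = 0.409) and -1.25 (SE 0.45) for D+1 IR over control (adjusted p = 0.644). Its stretch upstream is shown for this reason and held neither CCAAT nor the motif GGGCGG.
Col19a1, chr1:24587473-24587687, minus strand: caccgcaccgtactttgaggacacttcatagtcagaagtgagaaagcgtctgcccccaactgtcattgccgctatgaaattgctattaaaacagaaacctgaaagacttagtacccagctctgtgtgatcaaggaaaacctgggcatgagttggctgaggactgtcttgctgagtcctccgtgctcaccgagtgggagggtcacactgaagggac

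Without D+1 IR 1, 2 and 3, the log2 fold change for D-3 IR over D+1 IR was 1.22 for Col19a1, 0.93 for Col18a1, 0.88 for Col15a1, 0.86 for Col4a5, 0.76 for Col4a2 and 0.71 for Col4a1, in the same direction. Of the chains, 2 were then at an unadjusted p under 0.05, Col19a1 (0.0233) and Col24a1 (0.0187), instead of 10. The share of all genes at that level in this fit is not given here. The median of the type IV chains was 0.74 and that of the multiplexins 0.91. For D+1 IR over control, the values without these 3 libraries were -0.83 for Col19a1 (unadjusted p = 0.118), -0.74 for Col18a1 (unadjusted p = 0.188), -0.74 for Col4a5, -0.49 for Col4a2, -0.48 for Col4a1 and -0.42 for Col15a1. The median was then -0.48 for the type IV chains and -0.58 for the multiplexins, and neither Col19a1 nor Col18a1 was at an unadjusted p under 0.05. The same libraries differed in cell type markers. The smooth muscle genes were 7 of 7 higher in D-3 IR aortas than in D+1 IR aortas (median log2 fold change 1.14, against 45.4% of all genes above 0), with 5 at an unadjusted p under 0.05, against 6.71% of all genes, and D+1 IR 3, 20, 1 and 2 held their 4 lowest summed levels in D+1 IR (1201, 2026, 2925 and 6685 CPM). White adipocyte genes were 6 of 6 lower in D-3 IR aortas than in D+1 IR aortas (median -0.76), with summed levels of 2495 to 6921 CPM in D-3 IR, 2230 to 16498 CPM in D+1 IR and 513 to 8985 CPM in control aortas. Endothelial genes, of which 3 of 7 were higher in D-3 IR aortas than in D+1 IR aortas, had summed levels of 705 to 1376 CPM in D-3 IR, 591 to 1558 CPM in D+1 IR and 477 to 932 CPM in control aortas. No gene of these 3 lists was at 0 in all libraries of a group, and their part in the results for the chains was not tested.

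The fibrillar chains, which make up most collagen RNA, had no common direction, with 5 of 11 higher in D-3 IR aortas than in D+1 IR aortas (median log2 fold change -0.12, and 0.34 with limma voom). Col1a1 had 2646 to 11995 CPM in D-3 IR aortas (median 7200), 424 to 16568 CPM in D+1 IR aortas (median 6253), and 4169, 7722, 7330, 5198 and 11733 CPM in control aortas. The D+1 IR group held both the lowest aorta (D+1 IR 3) and the highest (D+1 IR 20). Its log2 fold change was 0.07 (SE 0.60) for D-3 IR over control, -0.18 (SE 0.60) for D+1 IR over control and 0.25 (SE 0.55) for D-3 IR over D+1 IR, with 95% intervals of -1.19 to 1.32, -1.43 to 1.07 and -0.90 to 1.39, so changes of over 2-fold in either direction lay within the first 2 intervals, and over 2-fold higher levels within the last. Without D+1 IR 1, 2 and 3 the last value was -0.17. Col1a2 had 2249 to 10780 CPM in D-3 IR aortas (median 6252), 363 to 10920 CPM in D+1 IR aortas (median 5327), and 3594, 6153, 7277, 5141 and 9540 CPM in control aortas. As for Col1a1, the D+1 IR group held the lowest and the highest aorta.

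Col3a1 had 2322 to 10881 CPM in D-3 IR aortas (median 6121), 414 to 8648 CPM in D+1 IR aortas (median 5459), and 3724, 5562, 9390, 5153 and 9851 CPM in control aortas. Its log2 fold change for D-3 IR over D+1 IR was 0.50 (SE 0.50). The stretch before its start is shown as that of an abundant chain rich in A and T (35.2% G or C), with its TATAAA, 117 bases before the start, in capitals.
Col3a1, chr1:45311288-45311537, plus strand: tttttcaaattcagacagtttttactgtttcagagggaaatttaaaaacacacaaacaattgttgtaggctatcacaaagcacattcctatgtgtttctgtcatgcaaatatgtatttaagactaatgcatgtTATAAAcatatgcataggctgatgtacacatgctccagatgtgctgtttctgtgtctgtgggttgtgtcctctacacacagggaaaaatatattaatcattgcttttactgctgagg
TATAAA was in 5 of the 38 windows of the chains (13.2%), against 12.4% of all windows. Col5a1 and Col5a2 encode the chains of type V, which starts fibrils. Col5a1 had 277 to 1422 CPM in D-3 IR aortas (median 869), 54.3 to 1476 CPM in D+1 IR aortas (median 737), and 342, 849, 1085, 497 and 1403 CPM in control aortas. Col5a2 had 231 to 1145 CPM in D-3 IR aortas (median 913), 52.0 to 765 CPM in D+1 IR aortas (median 610), and 240, 621, 1109, 422 and 1263 CPM in control aortas. The groups overlapped for both, and their log2 fold changes for D-3 IR over D+1 IR were 0.53 (SE 0.52) and 0.83 (SE 0.50).

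Of the 11 fibrillar chains, 6 (Col2a1, Col5a3, Col11a1, Col11a2, Col24a1 and Col27a1) had log2 fold changes below 0 for D-3 IR over D+1 IR. These 6 are grouped by this direction alone, and 45.4% of all genes were above 0. Some values were small against their error, such as -0.12 (SE 0.28) for Col11a2. Col24a1, a rare chain known from bone and cornea, was the chain with the largest difference, with a log2 fold change of -3.09 (SE 1.29) for D-3 IR over D+1 IR (edgeR, adjusted p = 0.421). It had 0 to 0.353 CPM in D-3 IR aortas, 0 to 5.72 CPM in D+1 IR aortas, and 0.147, 1.46, 0.0341, 0.123 and 0.265 CPM in control aortas. The difference rested on D+1 IR 20 (5.72 CPM) and D+1 IR 1 (2.07 CPM), since the other 5 D+1 IR libraries had at most 0.123 CPM, and without D+1 IR 20 the log2 fold change was -1.60. Col11a1, Col5a3, Col27a1 and the anchoring fibril chain Col7a1 were likewise highest of all aortas in D+1 IR 20, with 50.7, 210, 56.2 and 8.42 CPM, and 12 of the 43 chains had their highest level there. D+1 IR 20 also had the highest summed level of the macrophage genes, 3055 CPM, where the other D+1 IR libraries had 438 to 1185 CPM, and their part in these values was not tested.

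For D-3 IR over D+1 IR, 6 of 6 chains of type VI had a log2 fold change above 0, against 45.4% of all genes. Their median was 0.62, and 0.35 without D+1 IR 1, 2 and 3. Only 1 of the 6, Col6a3, was at an unadjusted p under 0.05 (edgeR). The values of Col6a4 and Col6a5 were small against their error, 0.07 (SE 0.96) and 0.38 (SE 0.53). Col6a1, Col6a2 and Col6a3 are not separate observations, since they went up and down together across the aortas. Their r was 0.992 for Col6a1 with Col6a2 and 0.96 for Col6a3 with Col6a1. Col6a1, Col6a2 and Col6a3 encode the α1, α2 and α3 chains that join 1 to 1 to 1. Col6a3 had 307 to 1744 CPM in D-3 IR aortas (median 963), 69.3 to 705 CPM in D+1 IR aortas (median 514), and 315, 751, 1289, 432 and 1268 CPM in control aortas. In 6 of 7 D-3 IR libraries Col6a3 lay above the highest D+1 IR library, and its log2 fold change was 1.19 (SE 0.46, edgeR adjusted p = 0.417). Col6a1 had 324 to 1268 CPM in D-3 IR aortas (median 774), 84.3 to 855 CPM in D+1 IR aortas (median 481), and 406, 571, 999, 624 and 922 CPM in control aortas. Col6a2 had 447 to 1452 CPM in D-3 IR aortas (median 988), 83.3 to 1043 CPM in D+1 IR aortas (median 525), and 494, 792, 1250, 731 and 1097 CPM in control aortas. The groups overlapped for both, and their log2 fold changes for D-3 IR over D+1 IR were 0.74 (SE 0.38) and 0.77 (SE 0.39), below that of Col6a3. Col6a4, Col6a5 and Col6a6, which encode alternatives to the α3 chain, were rare, with means of 0.710 to 15.5 CPM over the groups.

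Among the other FACIT chains, Col14a1, a regulator of fibril width, and Col16a1, a chain of fibrils and microfibrils, were the most abundant. Col14a1 had 110 to 611 CPM in D-3 IR aortas (median 347), 31.8 to 426 CPM in D+1 IR aortas (median 290), and 192, 232, 243, 360 and 475 CPM in control aortas. Col16a1 had 75.6 to 163 CPM in D-3 IR aortas (median 118), 33.5 to 211 CPM in D+1 IR aortas (median 91.8), and 53.7, 105, 110, 86.7 and 149 CPM in control aortas. Their differences between groups were within the spread between mice. Col22a1, a chain of tissue junctions, was the 1 chain with an unadjusted p under 0.05 for D-3 IR over control (0.0351). It stayed under 0.05 in 14 of 19 fits that left out 1 library, but not without control 4. The 19 fits include those that left out a D+1 IR library, which is not part of this comparison. Col22a1 had 0.403 to 1.45 CPM in D-3 IR aortas (median 0.599), 0.108 to 0.568 CPM in D+1 IR aortas (median 0.352), and 0.147, 0.212, 0.546, 0.493 and 0.159 CPM in control aortas. Of the 7 D-3 IR libraries, 4 lay above the highest control library, and its log2 fold change was 1.08 (SE 0.47, edgeR adjusted p = 1). Its highest count in any library was 51, so the counting error of each value is large.

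In the hexagonal network class, Col8a1, which migrating smooth muscle cells make, had 10.3 CPM per kilobase over all libraries, and its partner Col8a2 had 1.09. Col8a1 had 41.3 to 107 CPM in D-3 IR aortas (median 88.4), 13.5 to 150 CPM in D+1 IR aortas (median 60.1), and 20.6, 106, 104, 21.4 and 206 CPM in control aortas. Col8a2 had 1.78 to 7.72 CPM in D-3 IR aortas (median 4.18), 0.138 to 19.2 CPM in D+1 IR aortas (median 4.53), and 1.84, 4.78, 2.63, 3.76 and 4.13 CPM in control aortas. The groups overlapped for both, and D+1 IR held the widest range of Col8a2. Col7a1 had 0.765 to 2.47 CPM in D-3 IR aortas (median 1.03), 0.888 to 8.42 CPM in D+1 IR aortas (median 1.06), and 0.884, 3.74, 0.955, 0.771 and 1.72 CPM in control aortas. This chain of the anchoring fibrils of skin was highest in D+1 IR 20. Of the membrane-spanning chains, Col23a1 and Col13a1 were the most abundant. Col23a1 had 5.27 to 10.6 CPM in D-3 IR aortas (median 7.23), 3.99 to 11.8 CPM in D+1 IR aortas (median 8.94), and 6.74, 4.09, 4.89, 13.5 and 6.23 CPM in control aortas. Col13a1 had 0.671 to 9.88 CPM in D-3 IR aortas (median 1.96), 0.973 to 4.70 CPM in D+1 IR aortas (median 1.83), and 3.57, 2.10, 5.97, 1.60 and 0.742 CPM in control aortas. The ranges of the groups overlapped for both. Col26a1 and Col28a1 belong to none of the other classes. Col26a1 had 0 to 0.882 CPM in D-3 IR aortas (median 0.153), 0.0434 to 1.20 CPM in D+1 IR aortas (median 0.456), and 1.47, 0.212, 0.205, 0.956 and 0.053 CPM in control aortas. Col28a1 had 3.11 to 28.4 CPM in D-3 IR aortas (median 5.47), 3.39 to 49.4 CPM in D+1 IR aortas (median 7.43), and 28.1, 8.65, 13.3, 60.3 and 7.16 CPM in control aortas. Col28a1, a chain known from peripheral nerve, ranged 19.4-fold over the aortas, with high and low libraries in every group. The chains not described so far were Col12a1, a FACIT of tendon and fascia, with 12.6 to 180.0 CPM over all aortas, and Col2a1, Col9a1, Col9a2, Col9a3, Col10a1, Col11a2, Col17a1, Col20a1 and Col25a1, which reached at most 7.26 CPM.

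A ratio within a library does not depend on how libraries are scaled, so the ratio of partner chains tells whether chains of 1 molecule went apart. The pair Col3a1 and Col1a1 is an exception, since its chains belong to different molecules, types III and I. Of 27 comparisons (9 pairs, 3 comparisons of groups), 0 passed an adjusted p of 0.05 in exact two-sided permutation tests, whose smallest possible p was 0.000583 for 7 against 7 libraries and 0.00253 for 7 against 5. The log2 ratio of Col1a1 to Col1a2 averaged 0.19 ± 0.17 in D-3 IR aortas, 0.25 ± 0.21 in D+1 IR and 0.17 ± 0.15 in control aortas. The log2 ratio of Col4a1 to Col4a2 averaged 0.46 ± 0.12, 0.53 ± 0.14 and 0.47 ± 0.11 in the same order. The differences between groups were smaller than the spread between aortas of a group, although Col4a1 and Col4a2 themselves ranged 5.06-fold and 5.68-fold between aortas. The log2 ratio of Col4a5 to Col4a6 averaged 1.35 ± 0.18 in D-3 IR aortas, 1.42 ± 0.16 in D+1 IR and 1.43 ± 0.17 in control aortas, while the level of Col4a5 spanned 96.6-fold between aortas. The smallest p belonged to Col6a3 to Col6a1, with a mean log2 ratio of 0.28 ± 0.18 in D-3 IR aortas, -0.16 ± 0.31 in D+1 IR and 0.07 ± 0.47 in control aortas. For D-3 IR over D+1 IR it differed by 0.43 (SE 0.14, exact permutation p = 0.00816, adjusted p = 0.22), and by 0.51 without D+1 IR 1, 2 and 3 (exact p = 0.0242, adjusted p = 0.655). The ratio of Col3a1 to Col1a1 differed by 0.10 (SE 0.18) in that comparison, and that of Col5a1 to Col5a2 by -0.17 (SE 0.18). Col8a1 to Col8a2 had the widest spread, with 4.40 ± 0.66 in D-3 IR aortas, 3.96 ± 1.36 in D+1 IR and 4.28 ± 1.30 in control aortas.

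**Figure D4:**
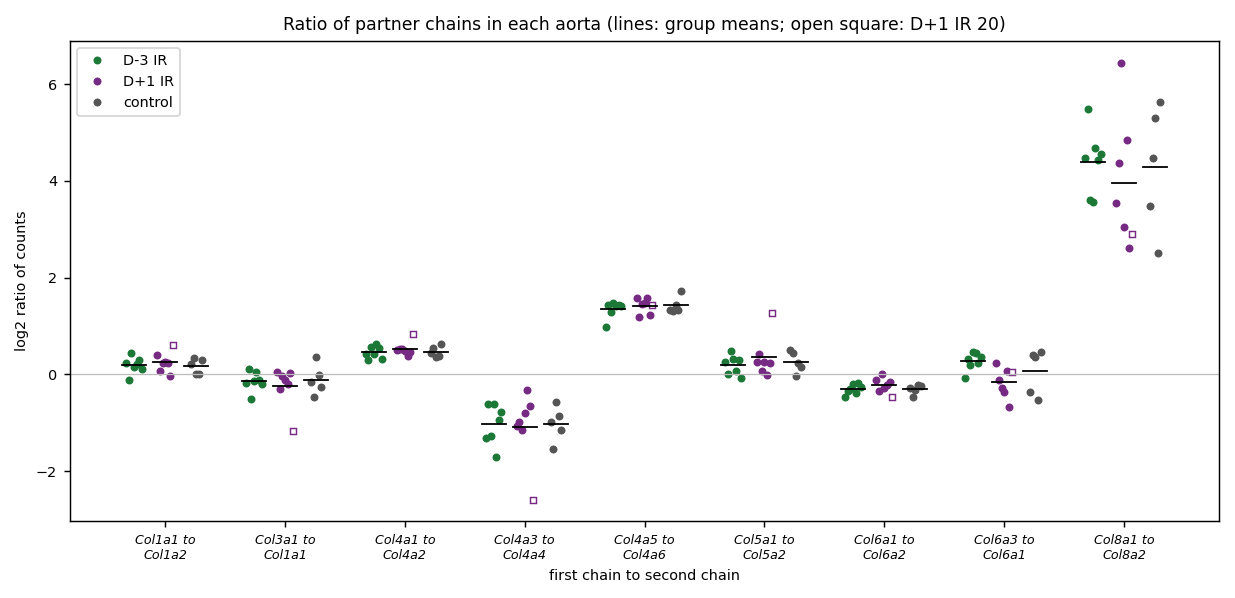
Log2 ratio of counts of partner chains in each aorta, for 9 pairs, with D-3 IR (green), D+1 IR (purple) and control (grey) from left to right, group means as lines and D+1 IR 20 as an open square. Col3a1 and Col1a1 belong to different molecules. The ratio of Col4a5 to Col4a6 averages 1.35, 1.42 and 1.43, and D+1 IR 20 stands apart for Col3a1 to Col1a1, Col4a3 to Col4a4 and Col5a1 to Col5a2.

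Across the 19 aortas, the log2 CPM of the chains of 8 pairs went up and down together, with Pearson's r of 0.956 to 0.995 and Spearman's rho of 0.851 to 0.991 (permutation p = 1e-05 for each, the smallest that 100000 resamples can give, adjusted p = 1.13e-05 over 9 pairs). Without the 2 aortas farthest from the median, r was 0.874 to 0.989, within D-3 IR 0.917 to 0.996 and within D+1 IR 0.955 to 0.997. The highest r was that of Col4a5 with Col4a6. Col8a1 with Col8a2 had r of 0.644 (permutation p = 0.00199) and 0.377 without the 2 farthest aortas, so that relation rests on those. All values of a library share its scaling, and these r say nothing of whether the pairs are closer than other genes of the aorta. Neighbours on a chromosome did not always match in level. Col9a1 and Col19a1, 9205 bases apart on chromosome 1, had 0.0555 and 0.527 CPM per kilobase, while Col3a1 and Col5a2, 24614 bases apart on the same chromosome, had 622 and 67.2 CPM per kilobase. Across the aortas, r was 0.197 for Col9a1 with Col19a1 but 0.955 for Col3a1 with Col5a2, which differed in level yet went up and down together.

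Collagen chains together took 3.37 ± 1.13% of the counts in D-3 IR aortas, 2.43 ± 1.69% in D+1 IR and 3.14 ± 1.23% in control aortas (SD, n = 7, 7 and 5). Without D+1 IR 1, 2 and 3 the mean of D+1 IR was 3.26 ± 1.53% (n = 4), above that of control aortas, so the direction rests on those libraries. The D+1 IR group spanned the widest range, with 0.35% in D+1 IR 3 and 5.16% in D+1 IR 20. Col1a1, Col1a2 and Col3a1 made up 38.4% to 83.2% of the collagen counts of an aorta (median 64.7%). Type IV chains made up 3.53% of the collagen counts in D+1 IR 20 and 6.44% in D+1 IR 1, against 35.3% in D+1 IR 3, and 11.9% to 20.9% in the other 4 D+1 IR libraries. In D-3 IR they made up 11.1% to 17.4% and in control aortas 10.8% to 15.9%. Libraries D+1 IR 3 and 20 thus had low type IV levels with opposite make-up, with 45.0% of their collagen counts in fibrillar chains in D+1 IR 3 and 88.9% in D+1 IR 20.

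**Figure D5:**
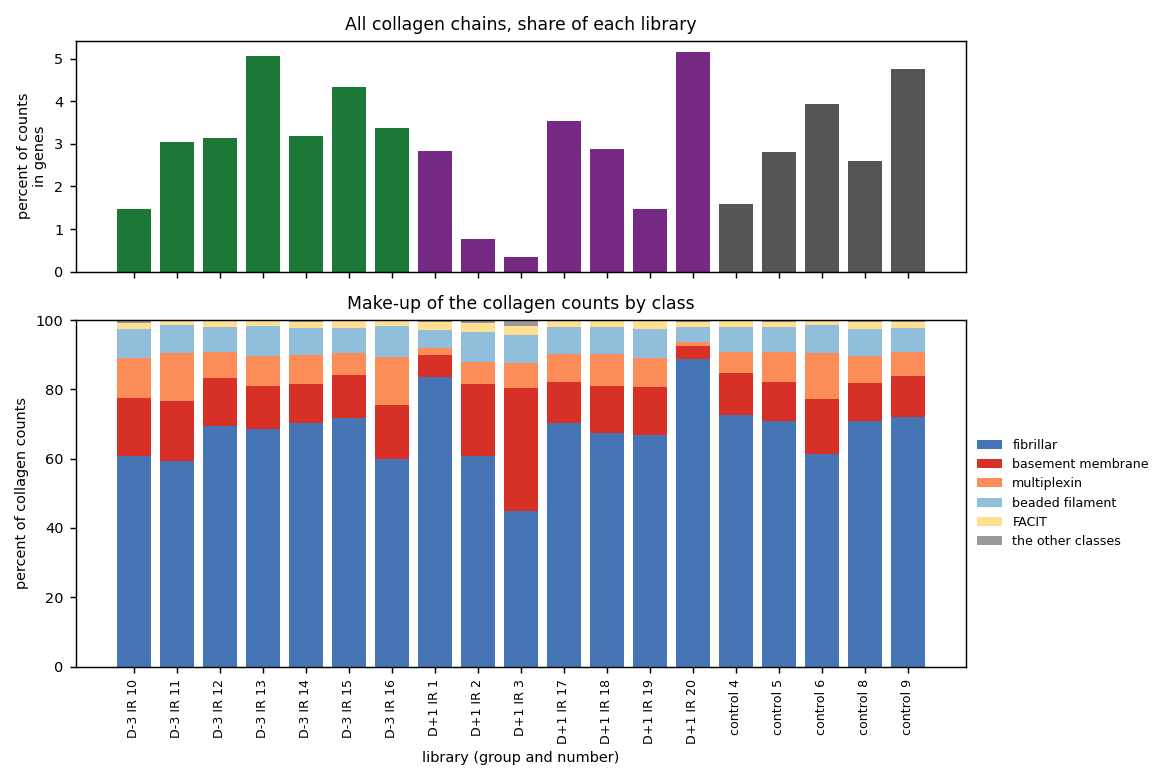
Upper bars give the share of all collagen chains in the counts of each library, in percent, and lower bars the make-up of these counts by class, with D-3 IR, D+1 IR and control libraries from left to right. D+1 IR 3 has the lowest share (0.35%) and D+1 IR 20 the highest (5.16%), and type IV chains (red) make up 35.3% of the collagen counts in the first and 3.53% in the second.

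The genes that act on collagen were read from the same fit, where 0 genes of any list passed the adjusted threshold. Of 19 enzymes and chaperones of collagen folding, 18 were higher in D-3 IR aortas than in D+1 IR aortas, with a median log2 fold change of 0.49 where 45.4% of all genes were above 0, and 5 were higher at an unadjusted p under 0.05, against 6.71% of all genes. Among them, Colgalt1, which adds galactose to hydroxylysine, averaged 163 CPM in D-3 IR aortas, 96.8 CPM in D+1 IR and 149 CPM in control aortas, with a log2 fold change of 0.75 (SE 0.28) between the irradiated groups. P3h2, a prolyl 3-hydroxylase of basement membrane collagen, averaged 40.1 CPM in D-3 IR aortas, 15.1 CPM in D+1 IR and 32.0 CPM in control aortas, with a log2 fold change of 1.41 (SE 0.56). Of 13 processing and crosslinking genes, 10 were higher in D-3 IR aortas than in D+1 IR aortas (median 0.61), including the crosslinking oxidase Loxl1, at 631 CPM in D-3 IR, 350 CPM in D+1 IR and 548 CPM in control aortas, and the procollagen N-proteinase Adamts14, at 10.1, 6.04 and 9.06 CPM. Of 9 tested receptors, 8 were higher in D-3 IR aortas than in D+1 IR aortas (median 0.30). The integrin chain Itga10 averaged 7.0 CPM in D-3 IR aortas, 3.84 CPM in D+1 IR and 7.63 CPM in control aortas, and the receptor kinase Ddr1 93.5, 56.6 and 95.0 CPM. Of 8 tested small proteoglycans, 6 were higher in D-3 IR aortas than in D+1 IR aortas (median 0.26), with biglycan (Bgn) at 5881, 2578 and 5328 CPM and osteoglycin (Ogn) at 256, 154 and 295 CPM in D-3 IR, D+1 IR and control aortas.

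The 6 collagen-degrading enzymes lay the other way. All 6 were lower in D-3 IR than in control aortas, with a median log2 fold change of -0.82 where 43.1% of all genes were above 0. Of them, 2 were lower at an unadjusted p under 0.05, against 0.817% of all genes, and 6 of 6 were lower in D-3 IR aortas than in D+1 IR aortas (median -0.36). For D+1 IR over control, 3 were higher and 3 lower (median -0.03). Only group means are given for these enzymes, so it cannot be seen whether a mean rests on 1 aorta. Mmp9, a gelatinase of neutrophils and macrophages, averaged 8.68 CPM in D-3 IR aortas, 12.2 CPM in D+1 IR and 41.5 CPM in control aortas, with a log2 fold change of -2.26 (SE 0.93) for D-3 IR over control (edgeR, adjusted p = 1). Mmp13, the main interstitial collagenase of the mouse, averaged 0.484 CPM in D-3 IR aortas, 1.84 CPM in D+1 IR and 1.26 CPM in control aortas, with a log2 fold change of -1.92 (SE 0.78) for D-3 IR over D+1 IR (edgeR, adjusted p = 0.421). The macrophage genes had summed levels of 296 to 1461 CPM in D-3 IR, 438 to 3055 CPM in D+1 IR and 225 to 1631 CPM in control aortas, with 4 of 6 higher in D-3 IR than in control aortas, and their part in these values was not tested.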

How the data were processed

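RNA of abdominal aortas, 1 library per mouse, was sequenced after poly(A) selection with a stranded kit. The deposited files hold raw counts of reads per gene that the authors made with STAR 2.7.9a on GRCm38, with read quality checked by FastQC. The joined table of 40698 genes was compared with the unstranded column of the library files, and all 748505 values compared were equal. The unstranded counts of the library files were used. The reads on each strand were near even (49.87% to 50.14% on the second), so the counts do not separate genes that overlap on opposite strands, such as the starts of Col4a1 and Col4a2. Of the chain counts under 100, 75.6% were even numbers, which was not explained by the sources used here.

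Counts were analysed with edgeR 4.0.16 in R 4.3.3: TMM normalization, filterByExpr (17617 genes kept), and the quasi-likelihood test with 1 term per group over all 19 libraries, with Benjamini-Hochberg adjustment over all genes and a threshold of 0.05. DESeq2 1.42.0 and limma 3.58.1 (voom with sample weights) were alternatives, as were other size factors, no filter, the newer quasi-likelihood form, only the 2 groups compared, and leaving out each library or D+1 IR 1, 2 and 3. Leaving out D-3 IR 10 with D+1 IR 3, and the collagen share without D+1 IR 1, 2 and 3, were chosen after seeing the data. Ratios of partner chains were log2 of counts with 0.5 added, tested by exact permutation with adjustment over 27 tests (SciPy 1.17.1). The fits were tested on simulated data. Libraries held 25839001 to 97083681 counts in genes (median 39641963), 67.45% to 78.04% of their reads.

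For selected chains, each control library was listed, and the irradiated groups were given by range, mostly with a median. These were Col1a1, Col3a1, Col4a1 and Col19a1, and the 2 chains of highest mean CPM per class. Up to 10 chains of smallest p and the chains of the pairs were included too. For up to 2 genes of smallest p in each list of other collagen genes, group means were given. Chains and lists were chosen with earlier results of these data known. Exon lengths and coordinates came from GENCODE M21 (GRCm38), and upstream sequences from RefSeq (GRCm38.p6). Both strands were searched for 3 short motifs, CCAAT in the first place, then the motif GGGCGG and also the motif TATAAA, and for the CArG box. Protein sequences were not used here. Replicates were separate mice.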

Additional observations from a re-analysis of the deposited data

Results flagged for a closer look

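Of 69 groups of values examined (chains and pair ratios, group by group), 6 held a library far from the others of its group, where chance gives about 1 in 20. In D+1 IR 20, the log2 ratio of Col3a1 to Col1a1 was -1.16, the lowest of its group, that of Col4a3 to Col4a4 was -2.59, also the lowest, and those of Col4a1 to Col4a2 and of Col5a1 to Col5a2 were 0.827 and 1.27, the highest. The same library had the highest summed level of macrophage genes, 3055 CPM, and the second lowest of smooth muscle genes, 2026 CPM. In D-3 IR 10, Col4a4 had 9.1 CPM and the log2 ratio of Col4a5 to Col4a6 was 0.969, both the lowest of the group. That library had the highest summed level of skeletal muscle genes, 6689 CPM. The part of these cell types in the values was not tested.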

How the results depend on the processing

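No paired analysis was possible because no replicate number occurs in more than 1 group, with 1 library per mouse. With edgeR, 0 genes passed the adjusted threshold in every comparison, whichever library was left out. For D-3 IR over D+1 IR, DESeq2 called 43 genes and limma voom with sample weights 2298 genes, among them 12 chains, while Col19a1 had an adjusted p of 0.0508 with DESeq2. The number of chains at an unadjusted p under 0.05 for D-3 IR over D+1 IR was 10, and it was 2 without D+1 IR 1, 2 and 3, 19 with limma voom, 13 without D-3 IR 10 and D+1 IR 3, and 6 to 13 when 1 library was left out (6 without D+1 IR 1). The number for D-3 IR over control was 1, and 0 (without control 4) to 2 (without control 6) when 1 library was left out. For D+1 IR over control it was 2, and 6 with DESeq2, and 0 to 8 when 1 library was left out. The shares of all genes given above belong to the edgeR fit of all 19 libraries. For the other fits no such share is given, so their counts of chains cannot be set against all genes. Of 348 values of chains with an unadjusted p under 0.05, 0 changed sign over the alternatives, against 165 of 3458 values of all tested chains. The 348 were picked by that p in the edgeR fit of all 19 libraries, and each chain counts once per alternative. The alternatives reuse most of the same libraries, so hardly any of the 348 could change sign, and no stability is read from this.

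The direction turned in a few cases. The log2 fold change of Col24a1 for D+1 IR over control was -0.48 with limma voom, and that of Col22a1 -0.10. Without D+1 IR 1, 2 and 3, Col1a1 had 0.25 for D+1 IR over control and -0.17 for D-3 IR over D+1 IR, and without D-3 IR 10 and D+1 IR 3 it had 0.034 for D+1 IR over control. The correlation of Col8a1 with Col8a2 was 0.39 without D+1 IR 1, 2 and 3. The median of the fibrillar chains for D-3 IR over D+1 IR, -0.12, was 0.34 with limma voom, 0.06 with only the 2 groups compared, and -0.389 to 0.193 when 1 library was left out. The mean collagen share of D+1 IR, 2.43%, was 3.26% without D+1 IR 1, 2 and 3, against 3.14% in control aortas. The cause was not tested in any of these. When 1 library was left out, the log2 fold change for D-3 IR over control ranged over -0.076 to 0.314 for Col1a1, -0.121 to 0.21 for Col3a1, -0.082 to 0.553 for Col4a5, -0.032 to 0.599 for Col4a6 and -0.05 to 0.61 for Col18a1, and that of Col1a1 for D+1 IR over control over -0.622 to 0.067.

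For 14 differences of log2 ratios, 0 was crossed when 1 library was left out. For D-3 IR over control they ranged over -0.026 to 0.067 for Col1a1 to Col1a2, -0.128 to 0.079 for Col3a1 to Col1a1, -0.041 to 0.025 for Col4a1 to Col4a2, -0.14 to 0.102 for Col4a3 to Col4a4, -0.034 to 0.032 for Col6a1 to Col6a2 and -0.322 to 0.461 for Col8a1 to Col8a2. For D+1 IR over control they ranged over -0.229 to 0.015 for Col3a1 to Col1a1, -0.189 to 0.19 for Col4a3 to Col4a4, -0.04 to 0.064 for Col4a5 to Col4a6, -0.059 to 0.156 for Col5a1 to Col5a2 and -0.755 to 0.028 for Col8a1 to Col8a2. For D-3 IR over D+1 IR they ranged over -0.107 to 0.001 for Col1a1 to Col1a2, -0.052 to 0.163 for Col3a1 to Col1a1 and -0.202 to 0.175 for Col4a3 to Col4a4. The common biological coefficient of variation was 0.591, and chains under 1 CPM rest on few counts.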

Other observations

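The following values were set side by side after they had been seen, with no test. The CPM of Col4a1 over that of Col4a5 was 91.4 in D+1 IR 3, 30.4 in D+1 IR 20, 19.7 in D+1 IR 2 and 13.4 in D+1 IR 1, while it was 5.05 to 9.30 in the other 3 D+1 IR aortas, 5.26 to 11.9 in the 7 D-3 IR aortas and 3.90 to 10.2 in the 5 control aortas. The summed CPM of smooth muscle genes in these 4 libraries was 1201, 2026, 6685 and 2925, in the same order. In the other aortas it was 10610 to 16110 in D+1 IR, 9271 to 24100 in D-3 IR and 5354 to 28400 in control aortas. Control 4, with 5354 CPM, lay below D+1 IR 2 but had a ratio of 6.67. The highest levels of Col28a1 were in D+1 IR 17 (49.4 CPM) and control 8 (60.3 CPM), which also had the highest summed levels of the sympathetic neuron and adrenal medulla genes, 2875 and 3409 CPM. Where those genes summed to under 3 CPM, Col28a1 had 4.54 and 4.90 CPM (D-3 IR 11 and 16), 3.39 and 6.41 CPM (D+1 IR 1 and 2) and 13.3 CPM (control 6).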
